A study of Mus musculus with 9 samples.

Results

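The genes described here encode the nuclear subunits of the 5 complexes of oxidative phosphorylation, together with the complex I assembly factors that share their name prefix. A gene was a member if its symbol began with Ndufa, Ndufb, Ndufc, Ndufs, Ndufv, Uqcr, Cox4i, Cox5, Cox6, Cox7, Cox8 or Atp5, or was Sdha, Sdhb, Sdhc, Sdhd or Cyc1. The rule used names and no measured value, apart from taking the brightest of the rows of a gene. It found 81 members among 21023 named genes, 39 of complex I, 3 of complex II, 9 of complex III, 17 of complex IV and 13 of complex V. Of 97 protein-coding genes that the rule takes in the reference gene list, the other 16 had no matching row and were not analysed here: Atp5g1, Atp5j2, Atp5k, Atp5o, Cox7c, Ndufab1, Ndufb1, Ndufb2, Ndufb4b, Ndufb4c, Ndufb6, Ndufb7, Ndufb10, Ndufb11, Ndufc1 and Sdha.

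RNA came from regulatory T cells (Tregs), CD4 T cells that restrain immune responses, sorted as CD4+ GFP+ cells from Foxp3EGFP mice on a C57BL/6 background aged 8 to 12 weeks. In these mice green fluorescent protein reports Foxp3, the transcription factor that defines Tregs, in all 3 groups. Resolving lung Tregs came from digested lungs of mice recovering after Escherichia coli O55:B5 lipopolysaccharide, given into the trachea at 3 mg/kg. Resolving spleen Tregs came from mechanically dissociated spleens of injured mice, and control lung Tregs from digested lungs of uninjured mice. Each group had 3 arrays (Affymetrix Mouse Gene 2.1 ST, from 225 ng of RNA), and the sources used here did not give the harvest day or the number of mice per array. The labels do not say whether replicates were separate animals. A p-value therefore speaks of the spread among these samples only, and that spread may be partly technical. Replicates were not alike in Xist. Of all named genes it stood furthest above its fellow replicates in resolving lung replicate 3 (by 3.35 log2 units). The same held in resolving spleen replicates 2 and 3 (by 3.27 and 3.31), so the spleen array low in Xist was replicate 1. The widest gap of any named gene below its fellow replicates was -6.57 in that array. Replicate 1 was also the array with the widest such gap among the resolving lung arrays, at -6.67, and the gene behind it was not recorded. Among control lung arrays the widest was -2.99, in replicate 3. The reason for these gaps was not tested. The design asks how Tregs of the injured lung differ from Tregs of the uninjured lung and from Tregs of the spleen, and no uninjured spleen was among the groups. Resolving spleen and control lung differ in organ, injury and tissue preparation together, and these cannot be told apart. Resolving lung and resolving spleen differ in organ and tissue preparation together.

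Oxidative phosphorylation takes place in the inner mitochondrial membrane. Complex I (NADH dehydrogenase) and complex II (succinate dehydrogenase) pass electrons to ubiquinone, complex III (cytochrome bc1) passes them to cytochrome c, and complex IV (cytochrome c oxidase) hands them to oxygen. Complexes I, III and IV pump protons, and complex V (ATP synthase) uses the proton gradient to make ATP. Tregs are known to depend on mitochondrial respiration more than conventional effector T cells do. Several core subunits are encoded by mitochondrial DNA and are outside the rule.

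All values are log2 expression values, on which a difference of 1 is a doubling. Between 44.8% and 47.5% of all named genes lay above the dim level in each array, set at the 95th percentile of the values of 915 olfactory receptor genes, which T cells are not known to use. Of the members, 71 lay above it in all 9 arrays, 9 lay at or below it in all 9, and Cox6a2 lay above it in 2 arrays. The 6 Treg markers Foxp3, Cd4, Cd3e, Il2ra, Ctla4 and Ikzf2 were above it in every array, with list means from 10.58 to 10.68 in resolving lung, 10.45 to 10.53 in resolving spleen and 10.49 to 10.61 in control lung. Transcripts of other cells were present too. The mean of 10 macrophage genes was 6.69, 4.50 and 4.57 in resolving lung replicates 1 to 3, 5.35, 4.46 and 4.49 in resolving spleen, and 5.03, 4.48 and 3.80 in control lung. Resolving lung replicate 1 stood apart in that list, and also in the mean of 9 stromal and smooth muscle genes, at 4.17 against 2.44 and 2.45 in replicates 2 and 3. Lung epithelium genes moved widely with the tissue, with a mean over 10 genes of 5.67, 5.02 and 4.97 in resolving lung, 3.06, 3.58 and 3.87 in resolving spleen, and 7.75, 6.56 and 6.57 in control lung. Of these 10, 3 passed as lower in resolving lung than in control lung, 4 as higher in resolving lung than in resolving spleen, and 7 as lower in resolving spleen than in control lung, with the surfactant genes Sftpb and Sftpa1 among them each time. The mean of 5 B cell genes was 4.88 to 5.25 in resolving lung, 6.01 to 7.25 in resolving spleen and 5.76 to 5.79 in control lung, and Cd79a and Ms4a1 passed as lower in resolving lung than in resolving spleen. The mean of 3 erythroid genes was 3.14, 7.13 and 3.51 in resolving lung, 6.85, 7.96 and 6.23 in resolving spleen, and 3.00, 2.77 and 2.40 in control lung. Slc4a1, a red cell membrane protein, passed as higher in resolving spleen than in control lung, and resolving lung replicate 2 stood apart from its fellow replicates in this list. The part of these cells in the differences of the members was not tested. In mixed samples of this kind, fewer cells of a type and less RNA per cell cannot be told apart.

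Few oxidative phosphorylation genes passed as different between the 3 groups of Tregs. With limma and Benjamini-Hochberg adjustment over all 21023 genes, 0 of 81 members passed an adjusted p of 0.05 between resolving lung and control lung. There 0.457% of all genes and 0.884% of those above the dim level in all arrays passed. Between resolving lung and resolving spleen 0 of 81 passed, where 5.46% and 10.9% did. Between resolving spleen and control lung 1 member passed, where 6.16% and 12.3% did. It was the complex I assembly factor Ndufaf1, which was higher in resolving spleen. The smallest adjusted p over the members was 0.101, 0.132 and 0.0273 in these 3 comparisons. The median member had an unadjusted 95% interval reaching 0.28 to either side of its fitted difference. The adjusted threshold asked for more than that. Between resolving lung and control lung, Cox5a at 0.57 (limma adjusted p = 0.207) and Ndufc2 at 0.53 (adjusted p = 0.141) did not pass. A member that did not pass may therefore still differ by such an amount.

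Small fitted differences leaned one way more often than those of all genes. Resolving lung was above control lung in 64 of 81 members (79.0%, against 52.5% of all named genes and 55.7% of the 8938 genes above the dim level in all arrays). The median member difference was 0.14, beside 0.01 over all genes and 0.03 over those above the dim level. At an unadjusted p under 0.05, 15 members were higher in resolving lung than in control lung, where 7.61% of all genes and 14.5% of the genes above the dim level were, and 2 were lower, where 6.39% and 11.5% were. Resolving lung was above resolving spleen in 51 of 81 members (63.0%, against 52.8% of all genes and 44.0% of the genes above the dim level), with a median of 0.04, beside 0.01 over all genes and -0.04 over those above the dim level. There 6 members were higher at an unadjusted p under 0.05, with 8.2% of all genes and 14.0% of those above the dim level, and 2 were lower, with 10.6% and 19.4%. Resolving spleen was above control lung in 60 of 81 members (74.1%, against 49.0% of all genes and 60.0% of the genes above the dim level). The median was 0.10, beside -0.00 over all genes and 0.06 over those above the dim level. In that comparison 6 members were higher at an unadjusted p under 0.05, with 11.2% of all genes and 21.0% of those above the dim level, and 3 were lower, with 7.55% and 12.8%. Cycling cell genes leaned with the members between resolving lung and control lung, where all 9 were higher in resolving lung (median 0.59), 8 of them at an unadjusted p under 0.05 and 0 past the adjusted threshold (smallest adjusted p = 0.0546). They were also all higher in resolving lung than in resolving spleen (median 1.31). Against control lung all 9 were lower in resolving spleen (median -0.88), opposite to the lean of the members there. Members are not independent of each other, so these counts are descriptions. The comparisons also share samples.

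**Figure D1:**
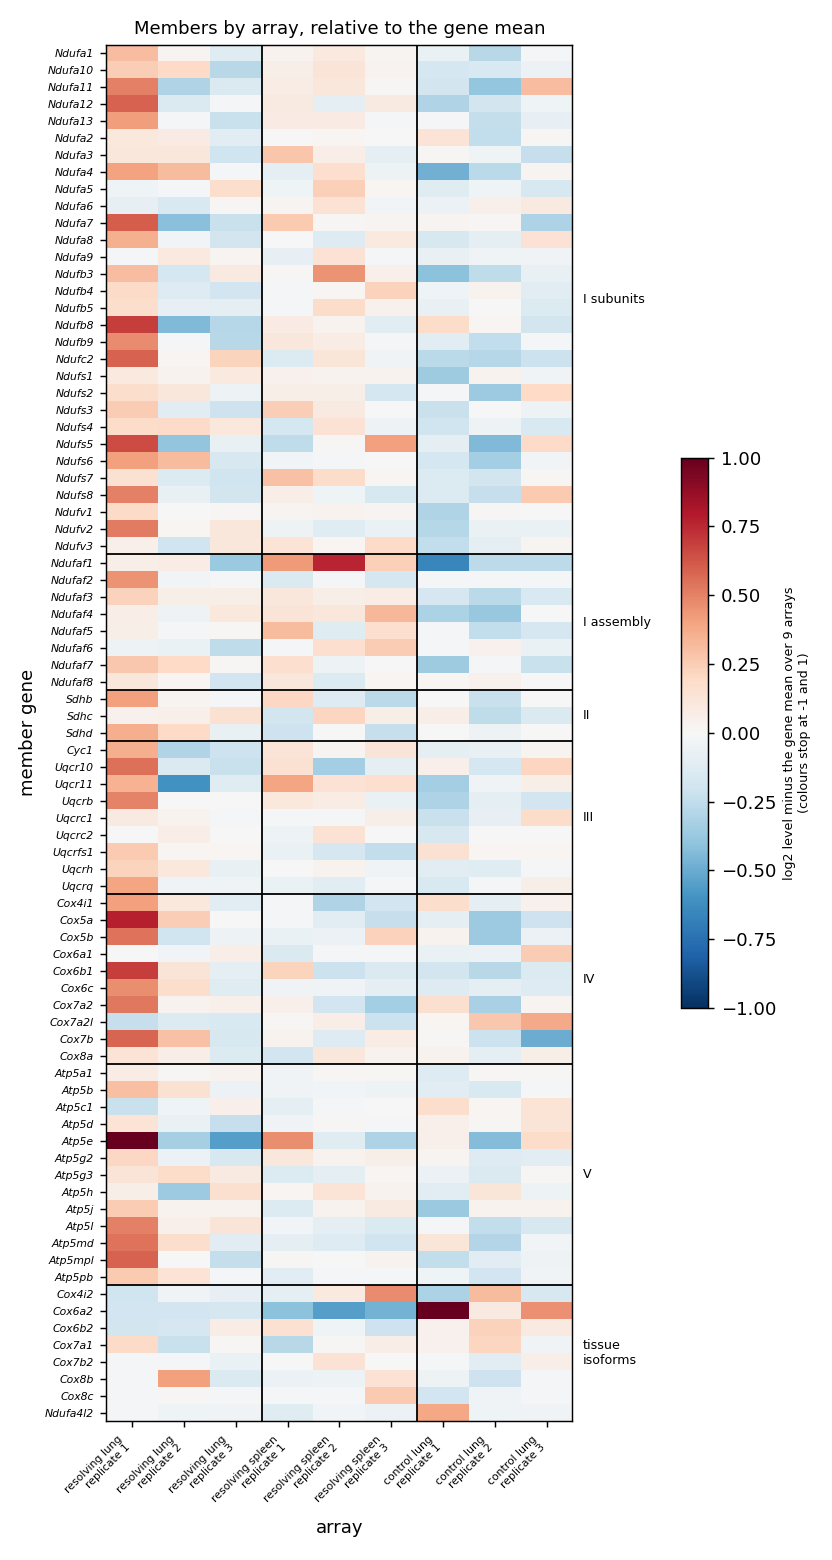
Log2 level of each of the 81 members (rows, by complex, with assembly factors and tissue isoforms apart) in each of the 9 arrays (columns), as the difference from the gene's mean over the 9 arrays. Red is above and blue below that mean. The column of resolving lung replicate 1 is the reddest, and it holds the highest value of 46 members.

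A single array carried much of the lean of resolving lung. Resolving lung replicate 1 had the highest of the 9 values for 46 of 81 members (56.8%, against 17.7% of all genes and 23.7% of genes above the dim level). It lay above both other resolving lung arrays for 60 members (74.1%, against 35.0% of all genes). The mean over the members was 6.93, 6.65 and 6.60 in resolving lung, 6.69, 6.68 and 6.66 in resolving spleen, and 6.59, 6.55 and 6.65 in control lung. The other 8 arrays lay between 6.55 and 6.69, and resolving lung replicate 1 lay above them. The gap of replicate 1 to the mean of its fellow replicates had a median of 0.27 over the members, beside -0.00 over all named genes and 0.03 over genes above the dim level. Atp5e, the epsilon subunit of the ATP synthase head, had the widest gap. It stood at 8.27, 6.88 and 6.66 in resolving lung, at 7.68, 7.10 and 6.91 in resolving spleen and at 7.27, 6.79 and 7.40 in control lung. Ndufb8, an accessory subunit of the complex I membrane arm, stood at 5.22, 4.09 and 4.24 in resolving lung and between 4.34 and 4.71 in the other 6 arrays. Both genes were picked here after their values were seen.

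Without resolving lung replicate 1, the excess over control lung shrank to a median of 0.05, with 46 of 81 members higher. At an unadjusted p under 0.05, 9 members were then higher and 5 lower. The share of all genes at that p was not counted in this setting, so these counts have no background. Against resolving spleen the median without that array was -0.02, with 37 of 81 members higher. In that setting 1 member passed the adjusted threshold, where 4.69% of all genes did. It was Cyc1, the cytochrome c1 subunit of complex III, which was lower in resolving lung. The same array also held the highest macrophage and stromal means given above. All 10 macrophage genes and 8 of 9 stromal genes were higher in it than the mean of its fellow replicates, and the macrophage receptor Marco lay above the dim level in this array alone. Its mean over 9 cycling cell genes was 7.66, against 7.37 and 7.30 in its fellow replicates. Whether the other cells in that sample contributed to its member levels was not tested.

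**Figure D2:**
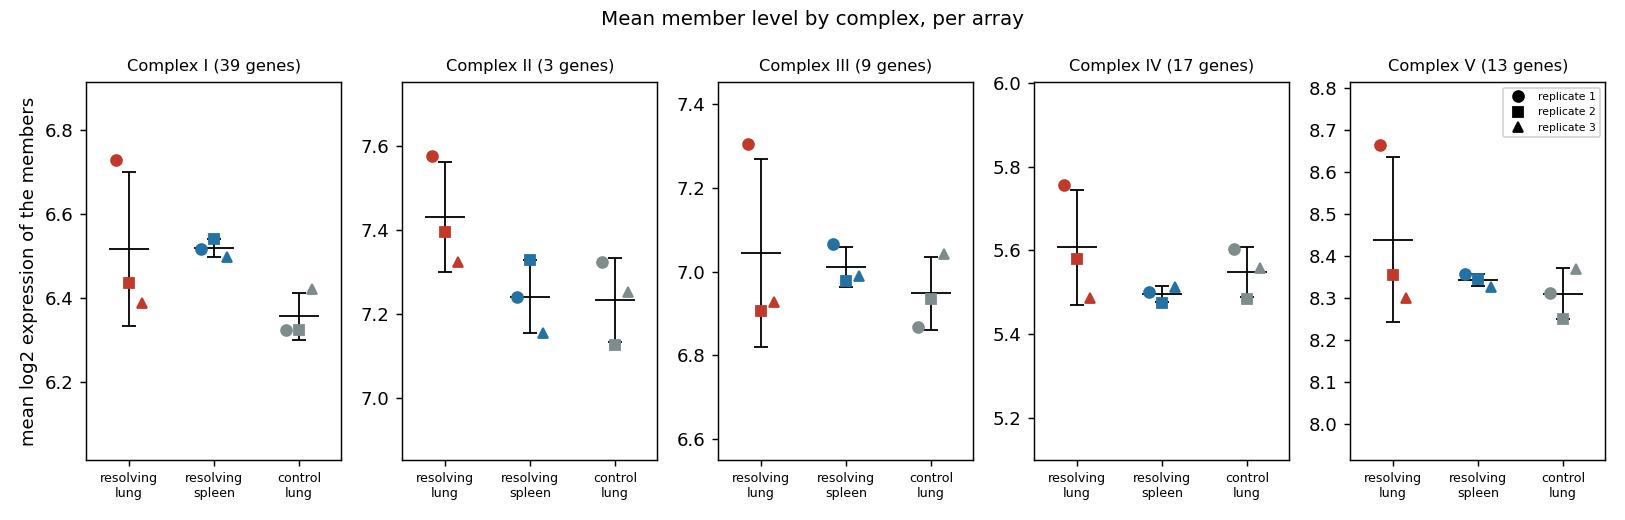
Mean log2 level over the members of each complex (vertical axis) in each array, by group (horizontal axis). Points are arrays, with the shape giving the replicate number, and the black bar and whiskers are the mean and SD of 3 arrays. Resolving lung replicate 1 is the highest point in all 5 panels, and every panel spans the same range of log2 units.

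Complex I was the complex in which resolving spleen most often stood above control lung. Its 39 members comprise 7 core subunits, among which are those that carry the flavin and the iron-sulphur clusters, 23 accessory subunits, 8 assembly factors and the low-oxygen isoform Ndufa4l2. The mean over these members was 6.73, 6.44 and 6.39 in resolving lung, 6.52, 6.54 and 6.50 in resolving spleen, and 6.32, 6.32 and 6.42 in control lung. The resolving spleen arrays all lay above the control lung arrays, while resolving lung replicate 1 lay above and replicates 2 and 3 below the spleen arrays. Resolving spleen was above control lung in 34 of 39 members (median 0.17), resolving lung above control lung in 33 of 39 (median 0.15), and resolving lung above resolving spleen in 21 of 39 (median 0.01). Those 2 counts of resolving lung were 22 of 39 against control lung (median 0.06) and 12 of 39 against resolving spleen (median -0.11) without replicate 1.

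Ndufc2, a small accessory subunit of the membrane arm, had the largest fitted difference of complex I between resolving lung and control lung. It stood at 8.35, 7.77 and 7.97 in resolving lung, 7.61, 7.87 and 7.72 in resolving spleen, and 7.48, 7.47 and 7.54 in control lung. Its 3 resolving lung values lay above the 3 control lung values, and it did not pass the threshold (0.53 ± 0.14 SE, limma adjusted p = 0.141). Ndufa4, which carries a complex I name but is known to sit in complex IV, stood at 9.55, 9.46 and 9.14 in resolving lung, 9.05, 9.31 and 9.10 in resolving spleen, and 8.67, 8.88 and 9.18 in control lung. The resolving lung and control lung values overlapped (0.48, adjusted p = 0.216). Ndufv2, a core subunit of the NADH-oxidising module, stood at 8.18, 7.68 and 7.77 in resolving lung, 7.61, 7.54 and 7.60 in resolving spleen, and 7.38, 7.60 and 7.60 in control lung. The resolving lung arrays were above all 6 others, with differences of 0.35 from control lung and 0.30 from resolving spleen (adjusted p = 0.26 and 0.261). Over the 7 core subunits the mean was 7.48, 7.19 and 7.15 in resolving lung, 7.31, 7.25 and 7.17 in resolving spleen, and 7.01, 7.10 and 7.26 in control lung. These ranges overlapped. Ndufa4l2 was at or below the dim level in all 9 arrays.

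The 8 Ndufaf genes encode proteins that help to build complex I and are not part of the finished enzyme. Their mean was 4.92, 4.79 and 4.69 in resolving lung, 4.91, 4.86 and 4.88 in resolving spleen, and 4.58, 4.63 and 4.66 in control lung. Control lung had the 3 lowest values. Resolving spleen was above control lung in 6 of 8 (median 0.25, 1 passed), resolving lung above control lung in 6 of 8 (median 0.22, 0 passed), and resolving lung above resolving spleen in 3 of 8 (median -0.06, 0 passed). The count against control lung was 5 of 8 (median 0.19) without resolving lung replicate 1.

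Ndufaf1, which acts on an intermediate of the complex I membrane arm, was the member that passed. It stood at 5.06, 5.07 and 4.63 in resolving lung, 5.42, 5.76 and 5.24 in resolving spleen, and 4.34, 4.74 and 4.73 in control lung. All 3 resolving spleen values lay above the other 6, while resolving lung and control lung overlapped. It was 1.82-fold higher in resolving spleen than in control lung (log2 difference 0.87 ± 0.18 SE, 95% interval 0.46 to 1.28, limma adjusted p = 0.0273). Against resolving spleen, resolving lung had a difference of -0.55 (adjusted p = 0.132). The resolving spleen call was lost when any 1 of the 3 control lung arrays or resolving spleen replicate 1 or 2 was left out (adjusted p from 0.056 to 0.0862, log2 difference from 0.72 to 0.93). Ndufaf4, which acts at an early step of complex I assembly, stood at 4.34, 4.23 and 4.38 in resolving lung, 4.40, 4.39 and 4.61 in resolving spleen, and 3.96, 3.90 and 4.28 in control lung. Its resolving spleen values were all above those of control lung, and it did not pass (0.42 ± 0.11 SE, adjusted p = 0.0652). Ndufaf3, an early assembly partner of Ndufaf4, was at 6.54, 6.37 and 6.37 in resolving lung, 6.42, 6.37 and 6.38 in resolving spleen, and 6.15, 6.04 and 6.16 in control lung. Its control lung values were the 3 lowest, and it missed the threshold against both resolving groups (0.31 for resolving lung, adjusted p = 0.101, and 0.28 for resolving spleen, adjusted p = 0.053).

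**Figure D3:**
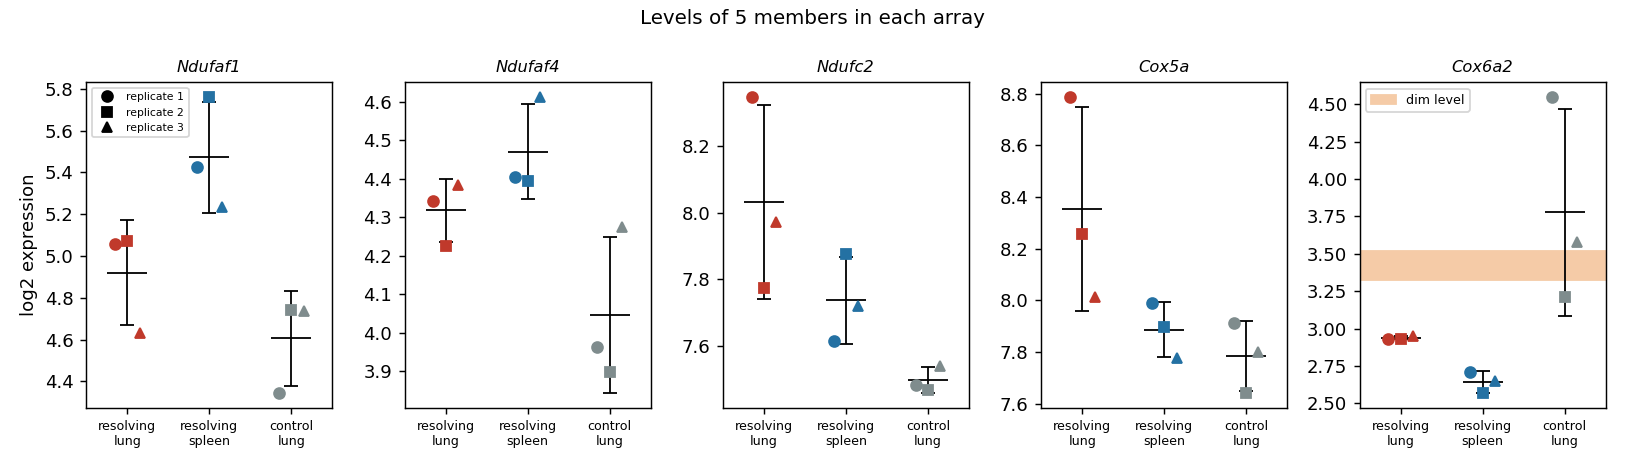
Log2 level of 5 members (vertical axes, each on its own scale) in each array, by group (horizontal axis), with the replicate number as the shape and the mean and SD of 3 arrays in black. Ndufaf1 is highest in resolving spleen, Ndufaf4 and Ndufc2 are lowest on average in control lung, Cox5a is highest in resolving lung replicate 1, and Cox6a2 exceeds the dim level (shaded) in 2 control lung arrays.

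The promoters of these assembly factors are shown because Ndufaf1 passed the test and Ndufaf4 came next to it among the Ndufaf genes by size. Each line holds the 150 bases before the RefSeq gene start (GRCm38.p6), read 5′ to 3′ on the strand of the gene, with capitals marking a motif. Ndufaf1 lies on the minus strand at chr2:119662835-119662984, and its capitals mark CCGGAAG, a core that ETS factors such as GABP recognise. Ndufaf4 lies on the plus strand at chr4:24897933-24898082, and its capitals mark GCATGCGC on both strands, a core of the palindrome that NRF1 recognises, as 2 overlapping matches.
Ndufaf1: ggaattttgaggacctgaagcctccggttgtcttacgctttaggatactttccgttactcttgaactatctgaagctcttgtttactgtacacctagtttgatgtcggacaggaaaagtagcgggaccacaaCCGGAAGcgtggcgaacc
Ndufaf4: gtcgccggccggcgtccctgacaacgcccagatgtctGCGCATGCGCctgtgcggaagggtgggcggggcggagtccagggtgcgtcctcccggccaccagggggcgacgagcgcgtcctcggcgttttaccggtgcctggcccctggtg
Of 63 members with a promoter in the RefSeq table, 8 (12.7%) held GCATGCGC on either strand in the 250 bases before the start, against 3.05% of 16043 named genes. CCGGAAG was in 11 of 63 (17.5%), against 9.06%, and AAGATGGC, the core of the YY1 site, in 0 of 63, against 1.59%. No motif contains the letters of another, and a match describes letters only. Genes above the dim level were not searched apart, so these shares lack that background.

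Complex II oxidises succinate and is shared with the tricarboxylic acid (TCA) cycle. Its measured members were Sdhb, the iron-sulphur subunit, and Sdhc and Sdhd, the membrane anchors. Their mean was 7.58, 7.40 and 7.32 in resolving lung, 7.24, 7.33 and 7.15 in resolving spleen, and 7.32, 7.13 and 7.25 in control lung. Resolving lung replicates 1 and 2 held the highest values, and replicate 3 fell within the range of the other groups. All 3 genes had higher means in resolving lung than in both other groups, with medians of 0.19 against control lung and 0.21 against resolving spleen, and 0 passed. Sdhd stood at 7.87, 7.71 and 7.43 in resolving lung, 7.30, 7.51 and 7.28 in resolving spleen, and 7.50, 7.45 and 7.51 in control lung. Its difference of 0.31 from resolving spleen did not pass (adjusted p = 0.182), and it passed without resolving lung replicate 3 (0.43, adjusted p = 0.0464). Sdhb had 7.98, 7.60 and 7.56 in resolving lung, 7.78, 7.44 and 7.30 in resolving spleen, and 7.58, 7.35 and 7.57 in control lung, with overlap between all groups. Sdhc differed by 0.19 between resolving lung and control lung (adjusted p = 0.505). The complex II medians were 0.08 against control lung and 0.07 against resolving spleen when resolving lung replicate 1 was left out.

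Complex III differed little between the groups. Its mean was 7.30, 6.90 and 6.93 in resolving lung, 7.07, 6.98 and 6.99 in resolving spleen, and 6.87, 6.94 and 7.04 in control lung. Apart from resolving lung replicate 1, all arrays lay between 6.87 and 7.07. Resolving lung was above control lung in 8 of 9 members (median 0.08), and without replicate 1 in 5 of 9 (median 0.00). Uqcrb, a small accessory subunit, stood at 10.53, 10.03 and 10.03 in resolving lung, 10.14, 10.11 and 9.97 in resolving spleen, and 9.72, 9.94 and 9.84 in control lung. Its control lung values were the 3 lowest (resolving lung minus control lung 0.36, adjusted p = 0.284). Uqcrfs1, the Rieske iron-sulphur protein, was lowest in spleen, with 5.60, 5.35 and 5.35 in resolving lung, 5.27, 5.17 and 5.09 in resolving spleen, and 5.49, 5.35 and 5.35 in control lung. Its 3 resolving spleen values were the lowest, and neither difference passed (resolving lung minus resolving spleen 0.26, adjusted p = 0.153, and resolving spleen minus control lung -0.22, adjusted p = 0.221). Uqcr11, another small accessory subunit, had a difference of -0.36 between resolving lung and resolving spleen (adjusted p = 0.45) and of 0.34 between resolving spleen and control lung (adjusted p = 0.482). Uqcrh, the hinge protein near cytochrome c1, differed by 0.17 between resolving lung and control lung (adjusted p = 0.416).

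Complex IV exists in ubiquitous and tissue forms, and these were read apart. Over the 10 members that are not tissue isoforms, the mean was 8.06, 7.73 and 7.60 in resolving lung, 7.65, 7.58 and 7.58 in resolving spleen, and 7.66, 7.50 and 7.64 in control lung. Resolving lung was above control lung in 8 of 10 (median 0.24) and above resolving spleen in 9 of 10 (median 0.23), with 0 passing, and resolving spleen was above control lung in 5 of 10 (median 0.03). Over all 17 members, isoforms included, the medians were 0.08, 0.07 and 0.06 in these comparisons. Without resolving lung replicate 1 the median over the 17 was -0.00 against control lung.

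Cox5a, a subunit on the matrix side of the enzyme, had the largest positive fitted difference of the members in resolving lung, against both other groups. It stood at 8.79, 8.26 and 8.01 in resolving lung, 7.99, 7.90 and 7.78 in resolving spleen, and 7.91, 7.64 and 7.80 in control lung. The 3 resolving lung values were the highest of the 9, and the spread between them was wide. The differences were 0.57 ± 0.18 SE from control lung (adjusted p = 0.207) and 0.47 from resolving spleen (adjusted p = 0.206). Without resolving lung replicate 1 they were 0.35 (adjusted p = 0.285) and 0.25 (adjusted p = 0.311). The partner row of Cox5b lay at or below the dim level, between 2.09 and 2.99 in all 9 arrays, so its level was not readable here. Cox7a2l has been linked to the association of complexes III and IV, which was not tested in these mice. Outside the tissue isoforms it was the complex IV gene lowest in resolving lung relative to control lung. It had 5.17, 5.26 and 5.25 in resolving lung, 5.41, 5.46 and 5.19 in resolving spleen, and 5.42, 5.67 and 5.78 in control lung. All 3 resolving lung values lay below all 3 control lung values, and the difference of -0.40 did not pass (adjusted p = 0.156). Cox7a2, its homologue in the enzyme itself, differed by 0.37 between resolving lung and resolving spleen (adjusted p = 0.321). The ubiquitous Cox4i1 stood at 8.73, 8.43 and 8.21 in resolving lung, 8.30, 8.02 and 8.13 in resolving spleen, and 8.50, 8.22 and 8.36 in control lung, with overlap of all groups. Cox6a1, Cox6b1, Cox7b and Cox8a, the widespread forms of their subunits, had resolving lung minus control lung differences of -0.03, 0.44, 0.47 and 0.02, and none passed.

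Of the tissue isoforms of complex IV, Cox4i2, Cox6b2, Cox7a1, Cox7b2, Cox8b and Cox8c lay at or below the dim level in every array. These forms are known mainly from lung (Cox4i2), testis (Cox6b2, Cox7b2 and Cox8c) and heart or skeletal muscle (Cox7a1 and Cox8b). Cox6a2, the heart and skeletal muscle form of subunit 6a, was the exception. It stood at 2.93, 2.93 and 2.95 in resolving lung, 2.71, 2.57 and 2.65 in resolving spleen, and 4.55, 3.21 and 3.58 in control lung. All 6 arrays of injured mice lay below the 3 control lung arrays, of which replicates 1 and 3 exceeded the dim level. Replicate 2 lay below its own dim level of 3.36, so its order against the arrays of injured mice cannot be read. With the other groups set to the dim level, resolving lung was 1.29-fold below the control lung mean, and resolving spleen 1.32-fold below it. That mean includes replicate 2, so these folds are not firm lower bounds. They also rest on control lung replicate 1: without it the control lung mean was 3.39, beside dim levels of 3.42 for resolving lung and 3.38 for resolving spleen. No fold could then be given for resolving lung, and 1.01-fold for resolving spleen. Neither difference passed (fitted resolving lung minus control lung -0.84, adjusted p = 0.232, and resolving spleen minus control lung -1.13, adjusted p = 0.0554). The second of these passed in 5 of 17 other settings, with adjusted p from 0.0163 to 0.152 over all 17. Of 15 measured markers of heart and striated muscle, 12 were at or below the dim level in all 9 arrays, Myh6, Ckm, Ckmt2 and Tcap among them, so they have no readable order. Their list mean was 2.25 to 2.33 in resolving lung, 2.22 to 2.27 in resolving spleen and 2.67 to 2.98 in control lung, all under the dim level. The other 3 were read above it in control lung. Myl7, an atrial myosin light chain, stood at 2.10, 2.42 and 2.26 in resolving lung, 2.37, 2.10 and 2.33 in resolving spleen, and 3.70, 4.34 and 3.69 in control lung, and passed as lower in both resolving groups (adjusted p = 0.0279 for resolving lung and 0.00196 for resolving spleen). Tnnt2 and Actn2, of the muscle thin filament and Z disc, passed as lower in resolving spleen than in control lung (adjusted p = 0.0188 and 0.0356). Their part in the level of Cox6a2 was not tested.

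Complex V makes ATP with a catalytic F1 head and a membrane-bound Fo rotor and stalk. Its mean was 8.66, 8.35 and 8.30 in resolving lung, 8.36, 8.34 and 8.33 in resolving spleen, and 8.31, 8.25 and 8.37 in control lung. Only resolving lung replicate 1 left the range of the rest. Resolving lung was above control lung in 10 of 13 members (median 0.20) and above resolving spleen in 9 of 13 (median 0.10), with 0 passing. Without resolving lung replicate 1 these medians were 0.06 and 0.04. Atp5l, the g subunit of the membrane part, stood at 8.87, 8.42 and 8.50 in resolving lung, 8.34, 8.27 and 8.22 in resolving spleen, and 8.35, 8.12 and 8.21 in control lung. Its 3 resolving lung values were the highest of the 9 (0.37 from control lung, adjusted p = 0.221, and 0.32 from resolving spleen, adjusted p = 0.2). Atp5g3, a gene for the rotor ring, was also highest in resolving lung, at 7.67, 7.72 and 7.63 in resolving lung, 7.40, 7.45 and 7.56 in resolving spleen, and 7.48, 7.40 and 7.55 in control lung. It differed by 0.20 from both groups (adjusted p = 0.246 for control lung and 0.152 for resolving spleen). Its sister gene Atp5g2 stood at 10.45, 10.18 and 10.08 in resolving lung, 10.35, 10.28 and 10.30 in resolving spleen, and 10.27, 10.11 and 10.14 in control lung, with overlap between resolving lung and both other groups. Atp5md and Atp5mpl, small proteins attached to the membrane part, differed by 0.34 between resolving lung and resolving spleen (Atp5md, adjusted p = 0.314) and by 0.15 between resolving spleen and control lung (Atp5mpl, adjusted p = 0.752). The catalytic beta subunit gene Atp5b stood at 10.83, 10.68 and 10.47 in resolving lung, 10.49, 10.51 and 10.48 in resolving spleen, and 10.42, 10.38 and 10.52 in control lung. Atp5c1, the gamma subunit of the central stalk, was lowest in resolving lung by mean, and its differences did not pass (-0.18 from control lung, adjusted p = 0.39, and resolving spleen minus control lung -0.15, adjusted p = 0.412).

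**Figure D4:**
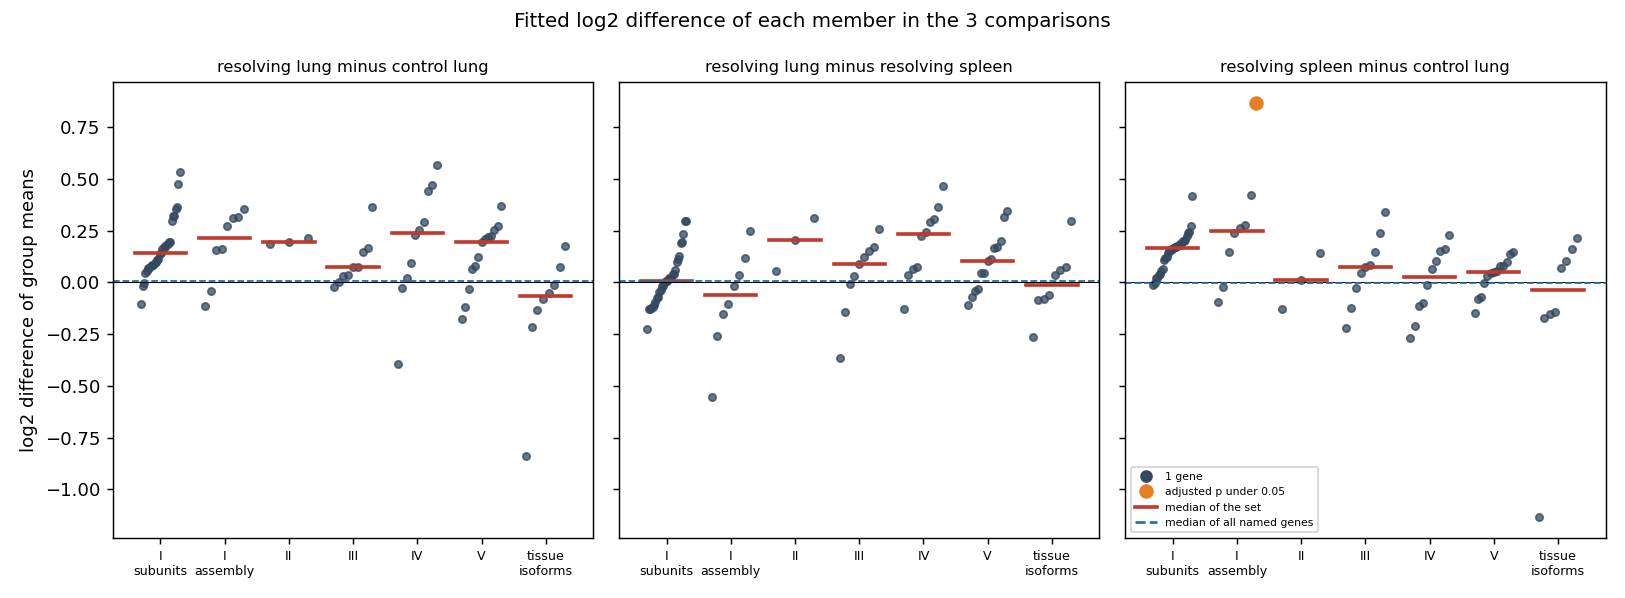
Fitted log2 difference of each member (vertical axis) by complex, with assembly factors and tissue isoforms apart (horizontal axis), in the 3 comparisons. Dots are genes, red bars the median of the set, the dashed line the median of all named genes, and the orange dot the member with an adjusted p under 0.05 (Ndufaf1). Most dots lie between -0.50 and 0.50.

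Several gene sets work beside the complexes. Among 18 measured electron carrier and exchange genes, 0 passed between resolving lung and control lung, with Vdac3, an outer membrane channel, at 0.55 (adjusted p = 0.158) and Coq10b at -0.53 (adjusted p = 0.105). Against resolving spleen, 2 of 18 passed in resolving lung (11.1%, where 5.46% of all genes and 10.9% of those above the dim level did), and between resolving spleen and control lung 3 of 18 (16.7%, where 6.16% and 12.3% did). Coq10b, a ubiquinone-binding protein of the respiratory chain, had the largest difference of the pathway lists. It stood at 8.34, 8.41 and 8.34 in resolving lung, 6.78, 6.98 and 6.50 in resolving spleen, and 8.92, 8.99 and 8.78 in control lung. The 3 groups did not overlap. It was 3.06-fold higher in resolving lung than in resolving spleen (log2 difference 1.61 ± 0.12 SE, adjusted p = 0.00136) and 4.41-fold lower in resolving spleen than in control lung (-2.14, adjusted p = 0.000342). Coq5, a methyltransferase of ubiquinone synthesis, had the opposite order, with 7.54, 7.67 and 7.47 in resolving lung, 8.41, 8.56 and 8.26 in resolving spleen, and 7.52, 7.50 and 7.10 in control lung. It was lower in resolving lung than in resolving spleen (-0.85, adjusted p = 0.00963) and higher in resolving spleen than in control lung (1.04, adjusted p = 0.00357). Both genes passed these tests in all 18 other settings. Ucp2, an inner membrane carrier, was higher in resolving spleen than in control lung (0.29, adjusted p = 0.0498) and passed in 8 of 18 other settings.

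Assembly factors outside the name prefixes leaned towards the spleen. Of 36 measured genes, 33 were higher in resolving spleen than in control lung (91.7%, against 49.0% of all genes and 60.0% of those above the dim level, median 0.21), and 28 were lower in resolving lung than in resolving spleen (77.8%, against 56.0% of genes above the dim level, median -0.16). The genes that passed were few. Between resolving spleen and control lung 3 of 36 did (8.33%, where 6.16% of all genes and 12.3% of those above the dim level passed). Between resolving lung and resolving spleen 1 of 36 did (2.78%, where 5.46% and 10.9% passed). Between resolving lung and control lung 25 of 36 were higher (median 0.10) and 0 passed, with Uqcc2 at 0.53 (adjusted p = 0.341) and Cox11 at -0.33 (adjusted p = 0.692). Lrpprc, which stabilises mitochondrial messenger RNAs, stood at 6.28, 5.93 and 6.27 in resolving lung, 6.68, 6.51 and 6.68 in resolving spleen, and 6.10, 6.12 and 6.03 in control lung. It was lower in resolving lung than in resolving spleen (-0.46, adjusted p = 0.0395) and higher in resolving spleen than in control lung (0.54, adjusted p = 0.0199). Taco1, a translational activator of a mitochondrially encoded complex IV subunit, rose in resolving spleen relative to control lung (0.77, adjusted p = 0.0246), and Timmdc1, a complex I assembly factor, did too (0.37, adjusted p = 0.0347). The call of Lrpprc against resolving spleen held in 10 of 18 other settings, and the 3 calls between resolving spleen and control lung in 13 (Lrpprc), 14 (Taco1) and 11 (Timmdc1) of 18.

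Mitochondrial ribosomal proteins, which make the mitochondrially encoded subunits, leaned in the same direction between resolving spleen and control lung. Resolving spleen was above control lung in 53 of 59 (89.8%, against 60.0% of genes above the dim level, median 0.21). There 3 of 59 passed (5.08%, where 6.16% of all genes and 12.3% of those above the dim level did). Mrpl49 (0.65, adjusted p = 0.0128), Mrpl45 (0.39, adjusted p = 0.02) and Mrps11 (0.40, adjusted p = 0.0215) were higher in resolving spleen. Resolving lung was above control lung in 48 of 59 (median 0.16, 0 passed), with Mrps25 at 0.51 (adjusted p = 0.158) and Mrps5 at 0.49 (adjusted p = 0.182). It was below resolving spleen in 35 of 59 (59.3%, near the 56.0% of genes above the dim level, median -0.06), and Mrpl38 alone fell (-0.67, adjusted p = 0.0192). Without resolving lung replicate 1, 52 of 59 were below resolving spleen (median -0.11) and 41 of 59 above control lung (median 0.08).

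The TCA cycle feeds electrons to complexes I and II. Of its 18 measured genes, 13 were higher in resolving lung than in control lung (median 0.14) and 0 passed, with Fh1 at 0.47 (adjusted p = 0.206) and Idh3a at 0.32 (adjusted p = 0.109). Idh3a, the catalytic subunit of NAD-dependent isocitrate dehydrogenase, stood at 8.09, 8.03 and 7.87 in resolving lung, 7.28, 7.42 and 7.32 in resolving spleen, and 7.67, 7.66 and 7.69 in control lung. The groups did not overlap. It was higher in resolving lung than in resolving spleen (0.66 ± 0.07 SE, adjusted p = 0.0034), which passed in all 18 other settings, and lower in resolving spleen than in control lung (-0.33, adjusted p = 0.0358), which passed in 10 of 18. It was the 1 TCA gene of 18 that passed in either comparison (5.56%). Of all genes 5.46% and 6.16% passed in these 2 comparisons, and of those above the dim level 10.9% and 12.3%.

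Among 16 measured regulators of mitochondrial biogenesis, 0 passed between resolving lung and either other group, with Polg2 at -0.86 (adjusted p = 0.251) and Ppargc1b at -0.43 (adjusted p = 0.533) against control lung and Polg2 at 0.84 (adjusted p = 0.18) and Pprc1 at -0.56 (adjusted p = 0.164) against resolving spleen. Between resolving spleen and control lung 2 rose and 2 fell (25.0% of 16 passed, where 6.16% of all genes and 12.3% of those above the dim level did). Twnk, the mitochondrial DNA helicase (0.68, adjusted p = 0.0315), and Tfb1m, a methyltransferase of mitochondrial ribosomal RNA (0.57, adjusted p = 0.0382), were higher in resolving spleen. Polg2, the accessory subunit of the mitochondrial DNA polymerase, was lower, with 6.16, 7.11 and 7.47 in resolving lung, 5.99, 6.00 and 6.23 in resolving spleen, and 7.43, 7.94 and 7.96 in control lung (-1.70, adjusted p = 0.0163). Gabpb1, a subunit of the ETS factor GABP, was also lower (-0.48, adjusted p = 0.0281). Ppargc1a, the coactivator best known for driving mitochondrial biogenesis, was at or below the dim level in all 9 arrays. Genes of the cell cycle moved between the groups as well: all 9 measured cycling cell genes passed as higher in resolving lung than in resolving spleen (median 1.31), and 5 of 9 passed as lower in resolving spleen than in control lung (median -0.88). Against control lung all 9 were higher in resolving lung without passing, as given above. Their part in the differences of the mitochondrial genes was not tested.

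**Figure D5:**
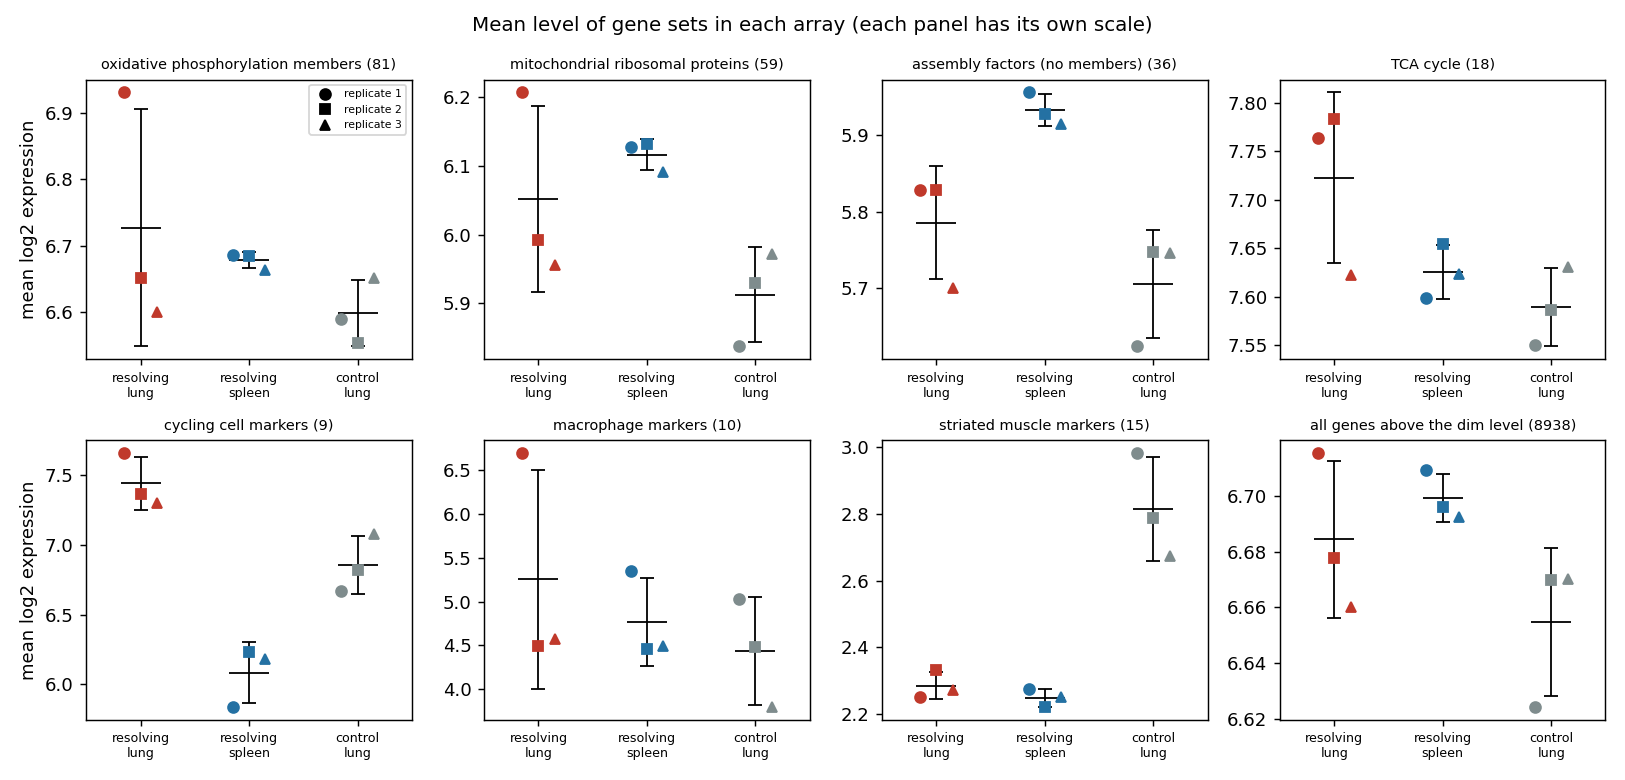
Mean log2 level of 8 gene sets (vertical axes, each on its own scale, with the number of genes in the title) in each array, by group (horizontal axis), with the replicate number as the shape and the mean and SD of 3 arrays in black. The oxidative phosphorylation members are highest in resolving lung replicate 1 (6.93), which is also the highest array for macrophage markers (6.69) and cycling cell markers (7.66), while assembly factors outside the prefixes are highest in the 3 resolving spleen arrays.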

How the data were processed

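The authors deposited log2 expression values in 31351 rows and 9 columns, 1 per array. The tools named in the submitters' processing notes are Affymetrix Expression Console, RMA (background correction, normalisation between arrays and probe summary) and Partek, and the sources used here give no version, order or genome build. RMA removes a change shared by most genes and compresses changes of dim genes. It also gave exactly equal values in some arrays for 32 of 81 members (39.5%, against 49.7% of all genes).

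Rows were named by transcript accession through an NCBI RefSeq gene list (GRCm38.p6, names and promoters only). Of them 21057 matched 1 symbol and 10294 (32.8%) stayed unnamed and were not used. Where a gene had several rows, as 34 genes did, the brightest row by mean over the 9 arrays was kept, which left 21023 genes. Probes of paralogous subunits may cross-hybridise, which was not checked.

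All 9 arrays were fitted in 1 model (limma 3.58.1, lmFit, contrasts.fit and eBayes, R 4.3.3, 6 residual and 2.29 prior degrees of freedom). The 3 comparisons were two-sided, at a threshold of 0.05 on the p adjusted by Benjamini and Hochberg's method, whatever the fold. Fits were tested on simulated data. Figures used Python 3.11.15 and matplotlib 3.10.9. The number of arrays limits the precision. The members and gene lists were chosen with earlier results of these data known. Named were members past the threshold, the 2 largest differences per complex and comparison, isoforms and their partners, the Ndufaf genes, and the genes past the threshold, or else the 2 largest, of each pathway list.

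Samples with the same replicate number in resolving lung and resolving spleen deviated together from their group means (correlations over all genes 0.174, 0.132 and 0.161). Such values cannot establish a pairing. Resolving lung replicate 2 and control lung replicate 3, which share no number, reached 0.198. The labels also give spleen replicates 2 and 3 the same description. The main fit therefore used no block. With replicate as a block, 0 members passed between resolving lung and resolving spleen, as without it. The other pairs of groups were not all above 0.1. Other settings tried were a variance trend, robust variances, 2-group fits, array weights, a second quantile normalisation, median centring, a filter on dim genes, the mean of a gene's rows, members without assembly factors, isoforms and dim genes, and leaving out each array.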

Additional observations from a re-analysis of the deposited data

How the results depend on the processing

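Between resolving lung and control lung 0 members passed in all 18 other settings. The median member difference stayed positive in all 19 (0.05 to 0.20). Leaving out each array gave medians of 0.084 to 0.29 for complex II, -0.00 to 0.10 for complex IV and 0.06 to 0.25 for complex V, each lowest without resolving lung replicate 1. Without isoforms, assembly factors and dim members, or with dim genes filtered, the complex IV median was 0.25 here and 0.24 between resolving lung and resolving spleen.

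Between resolving lung and resolving spleen, leaving out each array gave 0 to 1 members past the threshold, where 2.42% to 5.38% of all genes passed. The member was Cyc1 without resolving lung replicate 1 and Sdhd without replicate 3. Medians over these settings were -0.11 to 0.065 for complex I, 0.073 to 0.28 for complex II and 0.031 to 0.17 for complex IV. The median over all members was -0.02 to 0.12 over these, negative without resolving lung replicate 1, and positive in the other settings.

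Between resolving spleen and control lung, 2 members passed with a variance trend (Ndufaf1, and Cox6a2 as lower), where 5.95% of all genes passed. With only these 2 groups 2 passed (Ndufaf1 and Ndufaf3), where 6.88% of all genes did. With dim genes filtered 2 of 71 passed (Ndufaf1 and Ndufaf4), where 16.2% of the genes kept did. After median centring 3 passed (Ndufaf1 and Ndufaf3 higher, Cox6a2 lower), where 5.92% of all genes did. With array weights 4 passed (Ndufaf1, Ndufaf3 and Ndufaf4 higher, Cox6a2 lower), where 8.18% of all genes did. With the replicate block 2 passed (Ndufaf1, adjusted p = 0.03, and Ndufaf4, adjusted p = 0.0305), where 5.36% of all genes did. Injured and uninjured mice are different animals, so an equal number does not pair these 2 groups by animal. Correlations of equal numbers were 0.077, -0.064 and 0.049 here, and 0.291, 0.068 and 0.1 between resolving lung and control lung. Leaving out each array gave 0 to 2 members, where 3.24% to 8.53% of all genes passed. Without control lung replicate 1 or 2 Cox6a2 passed in place of Ndufaf1, without control lung replicate 3 Ndufaf4 did, without resolving spleen replicate 1 or 2 no member did, and without resolving lung replicate 1 Ndufaf1 and Ndufaf3 did. The cause was not tested.

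The number of genes of all 21023 that passed moved more. Between resolving lung and control lung it was 96, against 0 with only these groups, 63 with array weights, 15 with the replicate block, 235 with dim genes filtered and 4 to 212 on leaving out each array. With only these groups 8 members were higher and 2 lower at an unadjusted p under 0.05, and the share of all genes at that p was not counted. The number of genes that passed was 1148 between resolving lung and resolving spleen, against 704 with only these groups and 508 to 1131 on leaving out each array. It was 1295 between resolving spleen and control lung, against 681 to 1793 on leaving out each array. Signal limits the 9 dim members, which have no readable order.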
